A study of Bos taurus with 12 samples.

Results

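The dense unmethylated CpG stretches of bovine dermal fibroblast DNA were examined by reduced representation bisulfite sequencing (RRBS). The DNA was cut with the enzymes TaqαI and MspI, and short, CpG-rich fragments were sequenced after bisulfite treatment. A position is 1 cytosine of a CpG on 1 strand, and its methylation ratio is the share of reads in which it stayed a cytosine. A position was taken as a member when it lay on an autosome, had at least 10 other tested positions within 100 bp on either strand, had a mean coverage under 100 reads and had a mean ratio over the 12 cultures under 10%. Of the 838705 positions tested, 382090 (45.6%) were members. They fell on 255820 CpGs, of which 126270 were members on both strands. The low mean level is therefore the result of the choice and is given as a description only.

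The cultures were primary dermal fibroblasts of 6 Holstein heifers, each sampled at 5 months and again at 16 months of age. The 5-month cells made 6 young cultures (1A to 6A) and the 16-month cells made 6 old cultures (1B to 6B), and the same number marks the same animal. No culture was treated, each was at passage 6, and all frozen stocks were brought into culture together. There was 1 culture per animal and age, so age and the sampling occasion cannot be told apart, and P values measure the spread between animals. The study asked which CpGs differ in methylation between the ages, and here that question was put to the DNA with the least methylation.

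Most CpGs of vertebrate genomes are methylated. The exceptions are mainly CpG islands, short CpG-dense stretches that often lie at promoters and first exons and stay unmethylated whether or not the gene is transcribed. Methylation that does appear there is of interest in ageing and cancer, because many islands at developmental regulators gain it slowly with age or with time in culture.

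The authors' list of age-associated sites carries an annotation, which was read for the members on it. That list held 525 members, and 461 of them (87.8%) were annotated to a CpG island, against 22.2% of the 12944 other autosomal sites on it. A promoter annotation was carried by 146 of the 525 (27.8%), against 6.49%. An exon annotation was carried by 95 (18.1%), against 6.91%, and an intron annotation by 87 (16.6%), against 20.99%, so introns went the other way. CpG islands are CpG-dense and members were chosen for many neighbours, so a high island share is in part fixed by the choice. Dense methylated sites on the list were not set beside the members, so the shares are no check of the low methylation. The list was chosen on the same age contrast, so these shares describe the listed members and not all members.

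Joined wherever tested positions lay at most 100 bp apart, the tested positions formed 103960 loci, and 15997 of these consisted mostly of members. These loci are called stretches below. They held 374602 members (98.0%), and in 9504 of them every position was a member. A stretch had a median of 20 positions (from 11 to 160) and a median span of 139 bp, up to 1062 bp. Positions of 1 stretch share reads, and the strands of 1 CpG share a dinucleotide, so positions are not independent of each other.

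Dense DNA was mostly unmethylated in these cultures. Of the 476431 autosomal positions with at least 10 neighbours and a mean coverage under 100, 80.2% were members, whereas a mean ratio under 10% was met by 44.8% of positions with fewer neighbours. Members took from 29.9% of the tested positions of chromosome 27 to 57.8% of those of chromosome 12. Coverage at members averaged from 14.1 to 17.4 reads in the young cultures and from 12.5 to 19.99 reads in the old cultures, with 2B the lowest and 1B the highest. Of the members, 107374 (28.1%) had at least 10 reads in each of the 12 cultures and 3224 had at least 20. Mates that overlapped were counted separately and duplicates were kept, so reads are not independent molecules. At a single position a low ratio does not tell incomplete bisulfite conversion from methylated DNA.

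The limits of the rule cut through a continuum. The 1115 members with a mean ratio from 9.5% to under 10% averaged 9.71%, and the 953 dense positions just above the limit averaged 10.2%. The 17468 members with exactly 10 neighbours averaged 1.55%, and the 23963 positions with 9 neighbours that met the other conditions averaged 1.76%. The 39 members with a mean coverage from 95 to under 100 reads averaged 4.23%, and the 48 positions just above that limit averaged 3.94%.

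Methylation at members was sparse and scattered. No methylated read was seen in any of the 12 cultures at 153425 members (40.2%), and a further 100079 (26.2%) had a ratio above 0 in exactly 1 culture. Only 136 members (0.0356%) were above 0 in all 12. Over all members and cultures, 87.4% of the ratios were 0, the median member had a mean ratio of 0.667%, and the upper decile began at 4.17%. Of 70079970 reads at members, 891512 were methylated, and the 10% of members with the most methylated reads held 46.3% of these. The plot of the number of cultures above 0 falls steadily from 0 to 12 cultures.

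**Figure D1:**
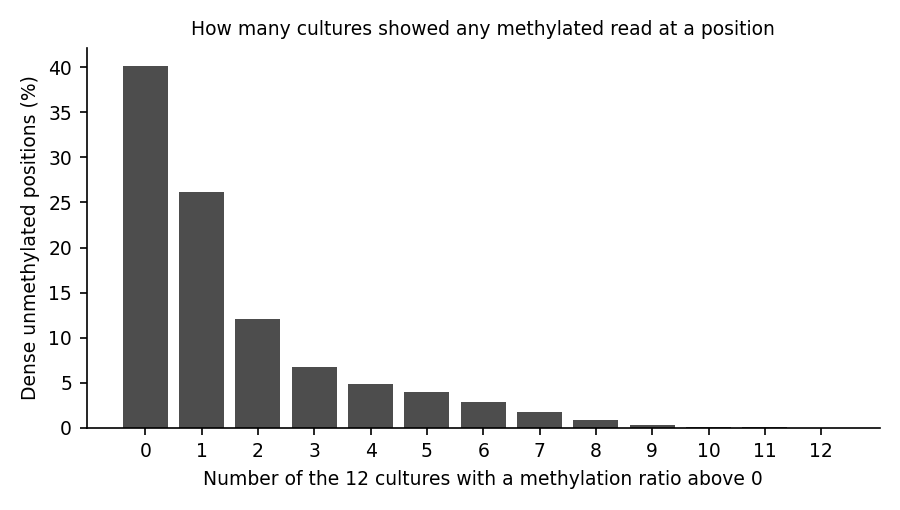
Share of the 382090 dense unmethylated positions (percent, vertical axis) by the number of the 12 cultures in which the methylation ratio was above 0 (horizontal axis). Positions at 0 in all cultures make up 40.2%, those above 0 in exactly 1 culture make up 26.2%, and the bars are below 1% from 8 cultures on.

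Part of this low methylation stayed with the position. Members at 0 in all 6 cultures of animals 1 to 3, 56.8% of the members, averaged 0.610% in animals 4 to 6. The 28018 members that averaged above 5% in animals 1 to 3, with a mean of 7.35%, averaged 4.66% in animals 4 to 6. The rule caps the mean over all 6 animals, so part of the drop from 7.35% to 4.66% is fixed by the choice. The level also varied with the surroundings. Members with 10 to 14 neighbours averaged 1.53% and those with 30 or more averaged 1.11%. Plus and minus strands averaged 1.34% each, and the mean over members ranged from 1.182% on chromosome 28 to 1.498% on chromosome 18.

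The mean methylation of the members was close to equal at the ages. The young cultures 1A to 6A averaged 1.31%, 1.38%, 1.31%, 1.54%, 1.38% and 1.33%, and the old cultures 1B to 6B averaged 1.25%, 1.26%, 1.35%, 1.30%, 1.37% and 1.32%. Culture 4A stood above all others, and the remaining 11 cultures overlapped. The mean of the 6 young cultures was 1.37% ± 0.0852 (SD) and that of the 6 old cultures 1.31% ± 0.0467. The paired difference was 0.0669 ± 0.0994 percentage points, higher in young in 5 of 6 animals, and did not pass an exact permutation test that flips the sign of each animal (two-sided P = 0.156, Benjamini-Hochberg adjusted over 7 tests 0.273). Without animal 4 it was 0.0322 percentage points. The rule restricts the mean over both ages and so allows a position to differ by at most 20 percentage points.

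Other summaries of the level gave the same order without passing the exact sign-flip permutation test. The share of methylated among all reads at members was 1.31% ± 0.0846 in young against 1.24% ± 0.0479 in old cultures (exact P = 0.156). With every culture brought to 5 reads per position, the chance of drawing at least 1 methylated read was 6.21% ± 0.347 in young against 5.94% ± 0.197 in old cultures (exact P = 0.156). The spread was measured as the mean absolute deviation of a culture from the other 5 of its age. It was 1.96 ± 0.0452 percentage points in young and 1.93 ± 0.0843 in old cultures, higher in young in 3 of 6 animals (exact P = 0.531). It was lowest in 1B, the culture with the most reads, and at members with at least 20 reads in every culture it was 1.64 in young against 1.66 in old cultures, higher in young in 2 of 6 animals.

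The members were set beside 2 other sets of autosomal positions in the same cultures. At 94341 dense positions with a mean ratio of 10% or more, the young cultures averaged 61.5% ± 1.38 and the old cultures 60.9% ± 1.75, and the change at members differed from this change by -0.497 percentage points (exact P = 0.344). At 136762 positions with a mean ratio under 10% but fewer than 10 neighbours, the young cultures averaged 2.30% ± 0.203 and the old cultures 2.07% ± 0.0660, higher in young in 6 of 6 animals (exact P = 0.0313). The change at members was smaller than at these sparser positions in all 6 animals, by 0.0417 to 0.348 percentage points. The mean difference between the changes was -0.162 ± 0.139 percentage points (exact P = 0.0313, the smallest that 6 animals can give, adjusted over 7 tests 0.219), so it did not pass after adjustment. Relative to the old level, the change was 5.12% at members and 11.04% at the sparser positions.

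**Figure D2:**
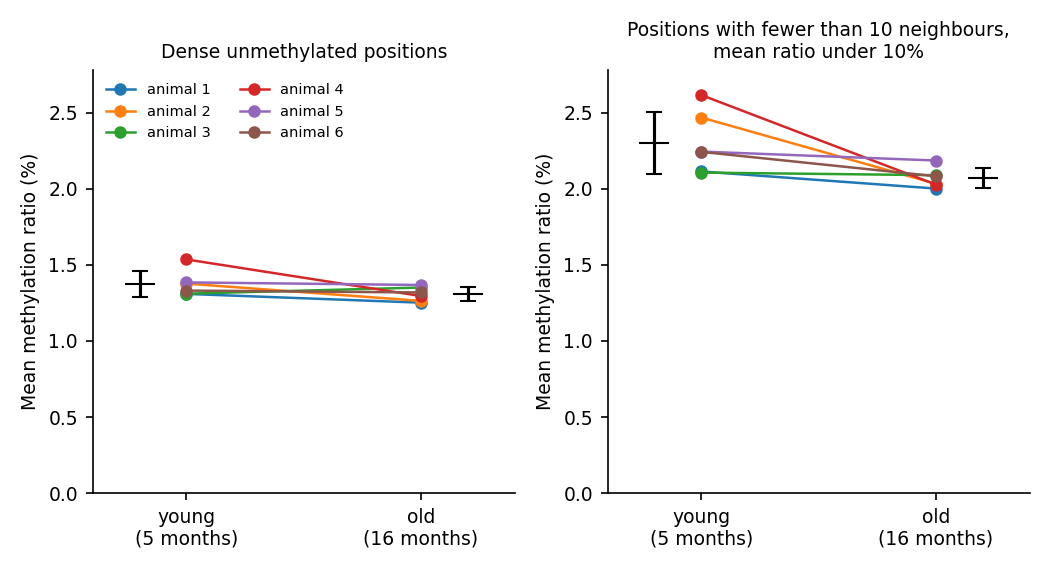
Mean methylation ratio (percent) of each culture over the dense unmethylated positions (left) and over positions with a mean ratio under 10% but fewer than 10 neighbours (right). Lines join the cultures of 1 animal, and black bars show the mean ± SD of 6 cultures. On the left 5 of 6 lines fall slightly from young to old, with 4A highest at 1.54%, and on the right all 6 fall.

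Members close to methylated DNA carried more methylation. Distance was taken to the nearest tested position with a mean ratio of 50% or more, and 288077 members (75.4%) had none within 5000 bp. The young cultures averaged 4.00% at members within 100 bp of such a position, 4.31% from above 100 to 250 bp, 2.89% from above 250 to 500 bp, 1.61% from above 1000 to 2000 bp and 1.26% beyond 5000 bp. The old cultures averaged 3.63%, 3.71%, 2.41%, 1.51% and 1.22% in the same bins. The level was thus highest from above 100 to 250 bp and lower in each bin farther away, at both ages.

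The age difference was wider within 500 bp of methylated DNA than farther away, without passing a test. Within 100 bp it was 0.362 ± 0.384 percentage points, higher in young in 5 of 6 animals (exact P = 0.0938, adjusted over 7 bins 0.219). From above 100 to 250 bp (934 members) the young cultures averaged 4.31% ± 0.550 and the old cultures 3.71% ± 0.180, higher in young in 6 of 6 animals by 0.598 percentage points on average (exact P = 0.0313, adjusted 0.109). From above 250 to 500 bp (4102 members) the difference was 0.486 ± 0.50 percentage points, again in 6 of 6 animals (exact P = 0.0313, adjusted 0.109). Beyond 5000 bp it was 0.0483 ± 0.0755 (exact P = 0.156, adjusted 0.219). No bin passed after adjustment.

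Taken as 1 group, the 6948 members within 500 bp of methylated DNA had young values of 2.98%, 3.65%, 3.05%, 4.03%, 3.58% and 3.04% in 1A to 6A and old values of 2.99%, 2.94%, 2.83%, 2.80%, 3.21% and 2.75% in 1B to 6B. Cultures 2A, 4A and 5A stood above every old culture and the other 3 young cultures overlapped with the old. The difference was 0.467 ± 0.442 percentage points near methylated DNA and 0.0595 ± 0.0942 farther away. The difference between these was 0.408 ± 0.366 percentage points, positive in 5 of 6 animals, and did not pass the paired exact test (P = 0.0625). With the pairing ignored, the exact permutation P was 0.0303 for the members within 500 bp and 0.0368 for the difference between near and far. The sparser positions near methylated DNA averaged 4.76% in young and 4.04% in old cultures, higher in young in 6 of 6 animals. The bins were chosen after earlier results of these data were known.

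**Figure D3:**
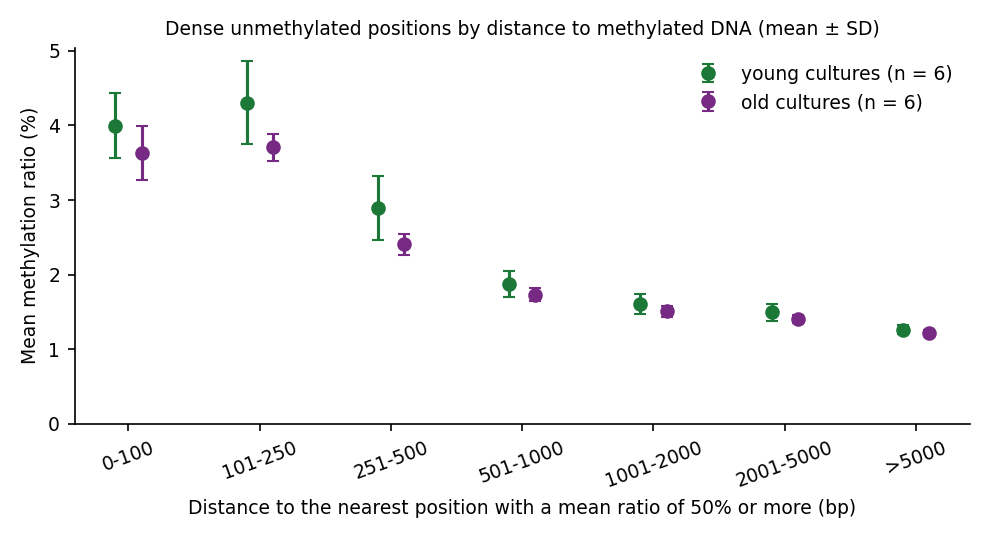
Mean methylation ratio (percent, vertical axis) of the dense unmethylated positions in bins of distance (bp, horizontal axis) to the nearest tested position with a mean ratio of 50% or more. Points are means of 6 young (green) or 6 old (purple) cultures and bars are the SD. The young mean is 4.00% within 100 bp, 4.31% in the next bin and then falls to 1.26% beyond 5000 bp, and the young mean lies above the old mean in each bin.

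Few single members differed between the ages. The study's paired test on the ratios gave a P below 0.05 at 2766 members (0.724%), where 2.87% of all 838705 positions had one. Of these members 1664 were higher in young and 1102 in old cultures, against 1.75% and 1.12% of all positions. A mean difference of at least 10 percentage points as well was met by 522 members (0.137%), 334 higher in young and 188 in old, against 1.68% of all positions (1.12% and 0.567%). These shares lay below the background. The rule limits how far a member can differ, and 40.3% of members showed no difference in any animal. The share with a P below 0.05 was 5.76% at dense positions of 10% or more and 1.44% at the sparser unmethylated positions. Within the members it was 2.39% within 500 bp of methylated DNA and 0.693% farther away.

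After Benjamini-Hochberg adjustment over all positions, the paired test left 0 members with a P below 0.05 (smallest adjusted P = 0.889). With limma and the animal as a block, 3318 members (0.868%) were below 0.05 before adjustment, against 3.39% of all positions, and 0 after it. The same direction in all 6 animals was found at 112 members that were higher in young and 61 that were higher in old cultures. No such count was taken over all positions, so nothing particular to the members can be read from these counts. Of these, 53 had at least 10 reads in every culture, 39 higher in young and 14 in old, and the positions named next were those with the largest differences among these 53. Their exact sign-flip P was 0.0313 by that choice, and their values are a description.

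Among these 53, the member with the largest difference lay on the minus strand of chromosome 21 at 71250409 (bosTau8). It read 22%, 21%, 23%, 14%, 9% and 22% in the young cultures and 0% in all 6 old cultures, at 14 to 29 reads. The partner cytosine of this CpG differed by 17.2 percentage points in the same direction, but it averaged 23.6% over the 12 cultures and was not a member. The stretch at 71250338 to 71250557 differed by 15.2 over 25 positions. The member on chromosome 4 at 119499449 read 9% to 31% in young cultures and 0% in the old, at 12 to 40 reads. Its partner on the other strand differed by -0.167 percentage points, so the strands did not share the change. That partner averaged 15.9% and was not a member.

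Of the 10 members with the largest differences towards young cultures, 2 were annotated to genes. On chromosome 8 at 98846540, in an exon of KLF4, a zinc-finger transcription factor that maintains pluripotency and epithelial differentiation, the young cultures read 8%, 38%, 12%, 29%, 7% and 6% and the old cultures 0% except 4B at 5%. The young range was wide, with 2A and 4A far above the other 4, and without animal 2 the difference fell from 15.8 to 11.4 percentage points. On chromosome 1 at 144813556, in the promoter of CBS, which makes cystathionine from homocysteine, the young cultures read 27%, 7%, 9%, 11%, 10% and 15% and all old cultures 0%. The partner strand differed by 8.0 and the CBS stretch by 2.89 percentage points.

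The other 6 positions higher in young lay outside the gene annotation at hand, on chromosomes 13, 19, 21, 7 and 17, with differences from 13.3 to 15.2 percentage points. One of them, on chromosome 19 at 43884380, had 4A at 50%, and without animal 4 its difference fell from 15.2 to 9.2. On chromosome 13 at 79997067 the partner strand, not a member at a mean of 10.9%, differed by 13.8 and the stretch of 20 positions by 15.4. On chromosome 17 at 66445346, which lay 14 bp from methylated DNA, the partner strand differed by -2.5 and the stretch by 1.07. A large difference at a position was thus shared by its stretch in some cases and not in others.

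Members higher in old cultures had smaller differences. On chromosome 1 at 150086512 all young cultures read 0% and the old cultures 6%, 15%, 13%, 10%, 11% and 8%. The partner strand differed by -2 and the stretch of 40 positions by -3.98 percentage points. On chromosome 1 at 2360557, in the promoter of EVA1C, all young cultures read 0% and the old cultures 8%, 7%, 13%, 14%, 9% and 9%, but the partner strand differed by -0.167 and the stretch by -0.857. In both the ages did not overlap. The other 8 differed by -6.67 to -9.33 percentage points. The partner strand went the other way on chromosome 17 at 73694848, by 6 percentage points, and on chromosome 19 at 29085604, by 7.5. It differed by -7.67 on chromosome 19 at 38178290 and by -1.83 on chromosome 7 at 6534282. At the one on chromosome 19 at 27450525, 35 bp from methylated DNA, the partner strand differed by -9.83. That partner averaged 10.6% and was not a member.

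Whole stretches were tested as the mean ratio of all their positions. A paired P below 0.05 was found for 820 of the 15997 stretches (5.13%), where 6.57% of all loci had one. It was 495 stretches that were higher in young (3.09%, all loci 4.42%) and 325 in old cultures (2.03%, all loci 2.15%). The paired test left 0 stretches after adjustment over all loci (smallest adjusted P = 0.272), and limma with the animal as a block gave 236 stretches (1.48%) at an unadjusted P below 0.05, against 7.26% of all loci, and 0 after adjustment. The median difference was 0.0256 percentage points, 52.0% of stretches were higher in young and 47.2% in old cultures, and over all loci 54.5% were higher in young. A difference of at least 5 percentage points was reached by 60 stretches. It was 54 that were higher in young (0.338%, all loci 17.1%) and 6 in old cultures (0.0375%, all loci 10.3%), and a stretch of low mean has little room for such a difference.

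The stretches of at least 20 members with the smallest P were small in effect. On chromosome 6 at 68694624 to 68694880, 35 positions averaged 0.895% ± 0.259 in young and 0.386% ± 0.315 in old cultures, higher in young in every animal by 0.429 to 0.686 percentage points (adjusted P of the paired test 0.338). On chromosome 17 at 74116221 to 74116810, 76 positions at YDJC and PRODH, the enzyme of the first step of proline breakdown, averaged 7.17% ± 1.39 and 5.61% ± 1.62, with 5A and 5B the highest of their ages. On chromosome 16 at 52297925 to 52298078 the young cultures lay between 6.48% and 10.7% and the old between 3.11% and 6.59%. On chromosome 7 at 3938160 to 3938228, 19 of 22 positions were higher in young, and the cultures read 2.5% to 3.95% in young and 0% to 1.41% in old, without overlap. On chromosome 11 at 27263628 the means were 2.16% and 1.14%.

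In the other direction, an intronic stretch of ARRDC3, an alpha-arrestin, on chromosome 7 at 93250075 to 93250218 read 0% in 5 young cultures, 0.292% in 2A and 0.708% to 1.71% in the old cultures. Of its 22 members 17 were at 0 in every culture, and 6 positions were higher in old and 0 in young cultures. On chromosome 11 at 96119635 the young cultures read 0% to 0.650% and the old 0.850% to 2.00%, again without overlap. The means on chromosome 3 at 115132587 were 0.382% and 0.825%, on chromosome 17 at 74539930 they were 0.830% and 1.30%, and on chromosome 26 at 14120491 they were 2.25% and 3.27%. None of these 10 stretches had an adjusted P below 0.338.

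The stretches with the most members were nearly bare. The longest by members, on chromosome 22 at 15860125 to 15860761, held 160 positions, all members, of which 94 were at 0 in every culture, and it averaged 0.679% ± 0.290 in young and 0.559% ± 0.158 in old cultures. On chromosome 12 at 33577754 to 33578449, a stretch of 125 positions was annotated to the promoter and an exon of SHISA2, which restrains Wnt and FGF receptors, and to an intron of ATP8A2, a phospholipid flippase. It averaged 2.43% ± 0.530 and 2.42% ± 0.499, and only 8 of its positions were at 0 in every culture. The cultures read 0.356% to 1.22% in the first of these stretches and 1.78% to 3.45% in the SHISA2 stretch, without overlap. The means of the other 8 ranged from 0.566% to 1.47%, and for none of the 10 was the exact sign-flip P below 0.0938.

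Stretches with a mean ratio of 10% or more in a culture were more frequent in young cultures, on a measure added after the data were seen. The share of stretches with a mean ratio of 10% or more was 1.22%, 1.96%, 1.14%, 2.37%, 1.74% and 1.30% in 1A to 6A and 0.819%, 1.28%, 1.12%, 0.969%, 1.33% and 0.881% in 1B to 6B. It was highest in 4A and 2A, and the ranges overlapped. The young cultures averaged 1.62% ± 0.486 and the old cultures 1.06% ± 0.209, a difference of 0.557 ± 0.464 percentage points, higher in young in 6 of 6 animals (exact sign-flip permutation P = 0.0313, the smallest that 6 animals can give). Over the member positions of a stretch alone the shares were 0.590% ± 0.254 and 0.325% ± 0.115 (6 of 6 animals, exact P = 0.0313), and in the 9504 stretches made of members only they were 0.172% ± 0.0579 and 0.10% ± 0.0331 (6 of 6 animals, exact P = 0.0313). The measure was chosen after values of these data had been seen, the 3 versions share positions, and their P values were not adjusted. No such share was taken over other loci, and the sparser positions under 10% were also higher in young in 6 of 6 animals. The difference can thus not be called particular to the stretches. Leaving out each animal gave differences from 0.389 (without animal 4) to 0.664 percentage points for all positions of a stretch.

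**Figure D4:**
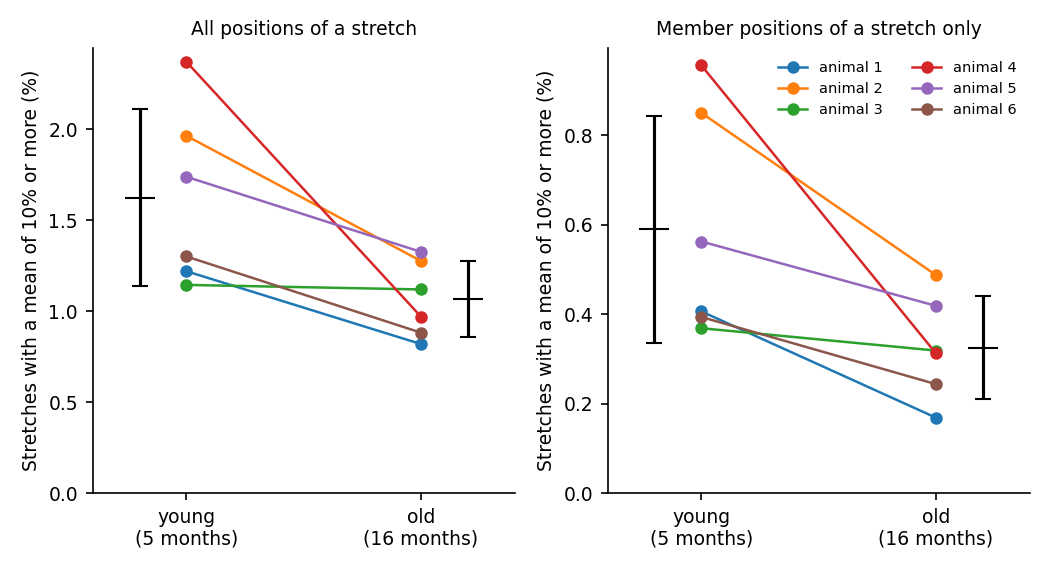
Share of the 15997 stretches (percent) with a mean methylation ratio of 10% or more in each culture, over all positions of a stretch (left) and over member positions only (right). Lines join the cultures of 1 animal, and black bars show the mean ± SD of 6 cultures. All 6 lines fall from young to old in both panels, steepest in animal 4 and nearly flat in animal 3.

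Strong methylation of a stretch was mostly seen in 1 culture, which the rule favours. A stretch consists mostly of members, whose mean over the 12 cultures is under 10%. That leaves little room for a mean of 20% or more in many cultures, so the counts are a description. The mean stayed below 10% in every culture in 94.4% of stretches, and 1 stretch read 0% at every position in all cultures. A mean of 20% or more was reached by 100 stretches in at least 1 culture and by 75 in exactly 1, of which 23 were in 4A and 20 in 2A. In an exonic stretch of SOBP on chromosome 9 at 42924534 to 42924622, 25 positions averaged 26.4% in 4A and 1.2% to 7.96% in the other 11 cultures. On chromosome 21 at 34283574 to 34283713, 20 positions averaged 27.0% in 5B, 8.80% in 2A and at most 1.65% elsewhere, at a mean coverage of 8.18 reads. On chromosome 9 at 102451160 to 102451251 culture 2A read 29.7% and the next, 6A, 11.9%. These examples were chosen after their values were seen. In each, the other culture of the same animal lay in the range of the other animals.

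Stray values were taken as a ratio of 20% or more in a culture at members with at least 10 reads in every culture. There were 7599 at 6219 members, 5.79% of those with the depth. Their share was 0.609% ± 0.118 in young and 0.571% ± 0.167 in old cultures, higher in young in 3 of 6 animals (exact P = 0.688). The count was lowest in 1B (340), the culture with the most reads, and highest in 4A (847). With 10 reads drawn at each position, the chance of at least 2 methylated reads was 2.53% ± 0.252 in young against 2.42% ± 0.235 in old cultures (exact P = 0.50), higher in young in 2 of 6 animals.

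Of the 6219 members with a stray value, 5038 (81.0%) had it in exactly 1 culture, the others in 2 or more, and 0 in 6 or more cultures. The rule leaves no room for more, since 6 cultures at 20% already bring the mean to 10%, and it favours members with few stray cultures. Of the 996 with a stray value in exactly 2 cultures, 107 (10.7%) had it in both cultures of 1 animal, and 9.09% of all pairs of cultures are of 1 animal. By their choice the stray values averaged 23.96%, while the same positions averaged 4.17% in the other culture of the animal and 3.97% in the other 10 cultures. Only 37 of the members at this depth reached 50% in any culture. On the partner strand of the same CpG the ratio averaged 6.07% in the culture with the stray value, 5.05% in the other culture of the animal and 4.88% in the other 10 cultures, over 6557 stray values. A stray value was chosen for being high, so the drop to its partner is in part fixed by that choice.

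On the same strand the excess was widest within 50 bp, the length of a read. Positions 2 to 10 bp away averaged 8.97% in the culture with the stray value and 4.57% in the other 10 cultures. At 11 to 25 bp these were 8.06% and 4.67%, at 26 to 50 bp 7.44% and 5.10%, and at 51 to 100 bp 5.84% and 4.77%. On the opposite strand, positions 2 to 10 bp away averaged 5.60% and 4.60%. An overlapping pair of mates counts a molecule 2 times. Members with an even coverage in all 12 cultures carried 36.3% of stray values and were 34.3% of the members at this depth, and the part of pair counting in stray values was not tested further.

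**Figure D5:**
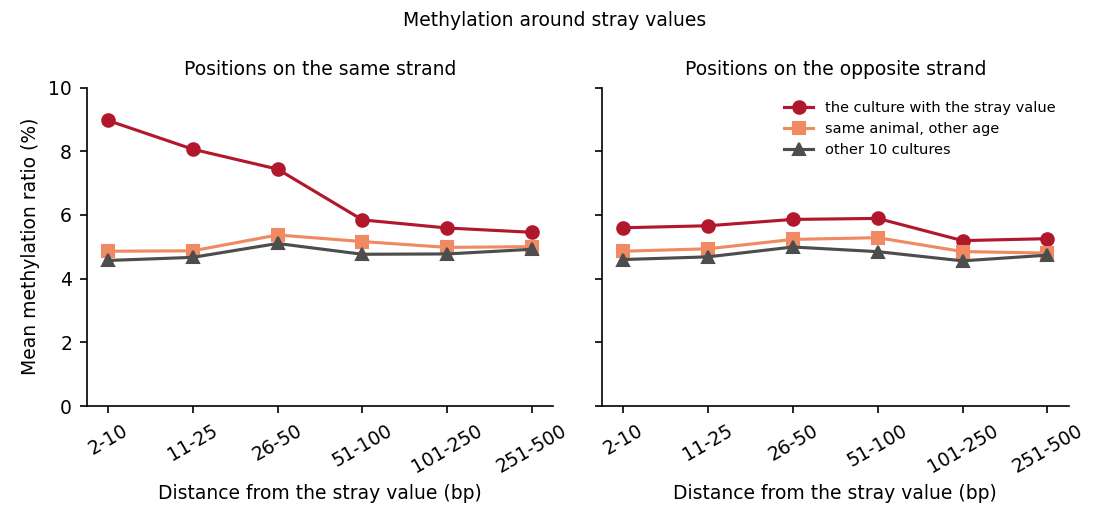
Mean methylation ratio (percent, vertical axis) of positions at increasing distance (bp, horizontal axis) from a stray value, on the same strand (left) and the opposite strand (right). Red circles show the culture with the stray value, orange squares the other culture of the same animal and grey triangles the other 10 cultures. The red line starts at 8.97% and falls to 5.84% at 51 to 100 bp on the same strand, and stays between 5.19% and 5.89% on the opposite strand.

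The highest single-culture values at 20 or more reads in that culture had unlike surroundings. They were taken from members of any depth. Only the one on chromosome 19 also had at least 10 reads in every culture. On chromosome 15 at 71062302, where coverage ran from 5 reads in 5A to 190 in 2A, 5B read 60% at 20 reads. The other 11 cultures averaged 4.64%, but 4 positions within 50 bp averaged 72.5% in 5B and 72.7% in the others. This member therefore lay among methylated positions in 5B and, on average, in the other 11 cultures. On chromosome 19 at 43884380, which also had the same direction in all 6 animals, 4A read 50%, its partner strand 24%, and 21 positions within 50 bp averaged 16.7% in 4A and 5.13% elsewhere. On chromosome 8 at 73148490, 5A read 50% and the partner strand 0%, and the 18 positions around it averaged 9.72% in 5A and 9.38% elsewhere. On chromosome 10 at 87021138, in the stretch of JDP2, a repressor of the AP-1 family, 2A read 46% and the partner strand 25%. On chromosome 5 at 82241844, 1A read 46%, and the 5 positions around it averaged 24.4% in 1A and 10.4% elsewhere.

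Genes could be given for 290 stretches, those with a site on the authors' list, and 299 genes were named there, 199 of them through a promoter site. Since the list was chosen on the same contrast, the counts that follow are no independent evidence of a direction. Of the 290 stretches, 56 had a paired P below 0.05 with higher values in young cultures and 18 in old cultures, and the median difference was 0.431 percentage points, against 0.0256 over all 15997 stretches.

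Developmental transcription factors, homeobox, paired-box, forkhead and related genes that pattern the embryo and are silent in most adult cells, were the only list with genes named in a stretch, through sites of the authors' list. Of the 193 genes on that list 13 lay in 15 stretches. Of these, 4 (26.7%) were higher in young cultures at an unadjusted paired P below 0.05 and 0 in old, against 19.3% of the 290 stretches higher in young, and their median difference was 1.27 percentage points. Nothing particular to these genes can be read from a share this close to that of the 290. None of the 15 had an adjusted P below 0.673. The promoter stretch of NKX2-2, which specifies ventral neural and pancreatic cells, read 18.3%, 7.17%, 16.0%, 21.3%, 13.4% and 7.08% in the young cultures and 7.33%, 4.92%, 8.42%, 4.17%, 7.17% and 7.33% in the old. Young 1A, 3A, 4A and 5A lay above every old culture, and in animal 6 the young culture was not higher. Only 7 of the 12 positions of this stretch were members.

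The exonic stretch of PITX3, needed for lens and dopaminergic neurons, averaged 6.07% ± 0.946 in young and 4.96% ± 1.10 in old cultures, higher in young in 6 of 6 animals. The exonic stretch of SIX3, a regulator of forebrain and eye, averaged 7.01% ± 1.21 and 4.06% ± 1.76, and the intronic stretch of NKX3-2, which acts in cartilage and the gut wall, 5.16% ± 1.01 and 3.42% ± 0.520. The exact sign-flip P was 0.0313 for PITX3 and 0.0625 for NKX2-2, SIX3 and NKX3-2, higher in young in 5 of 6 animals in these 3. The promoter stretch of NKX3-2 read 1.60% and 1.51%, and the intron and promoter stretch of SIX3 read 4.72% and 3.91%, in young and old cultures, with no paired P below 0.05. GATA2, a regulator of blood progenitors, was nearly bare at 0.639% and 1.02%. The stretches of PAX6 (11.1% and 9.48%), NKX6-1 (8.53% and 7.18%), ZIC2 (8.48% and 7.21%) and FOXA1 (5.41% and 5.78%) had no paired P below 0.05 either. Members were 18 of 25 positions at PAX6, 9 of 17 at NKX6-1, 20 of 28 at ZIC2 and 19 of 27 at FOXA1.

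The other lists held no gene in a stretch with a listed site. These were the LPS response and the genes the study selected (7 of 19 on the authors' list anywhere), the DNA methylation machinery (4 of 13), the fibroblast matrix (2 of 18) and the ribosomal proteins (7 of 93). For these genes the level of an unmethylated promoter was not analysed here, since no annotation of unlisted positions was used.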

How the data were processed

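RRBS libraries of 12 cultures were analysed. The authors' provider trimmed the reads with Trim Galore 0.3.7 after FastQC 0.11.1 and aligned them to bosTau8 with Bismark 0.13.1. The deposited methylation ratio is a fraction of reads, rounded to 2 decimals. The deposited coverage is a count of reads per position and strand, not normalized, of at least 5 in every culture. The deposited p-value and difference columns hold the authors' own comparison and were not used. The authors' list of sites gave gene and CpG island classes as text, where a promoter runs from 2500 bp before to 1000 bp after a start. It was used for annotation only.

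Methylated reads were the ratio times the coverage, rounded. Positions are 1-based. Cultures were grouped by the labels and paired by animal: same-numbered cultures are of 1 heifer. Deviations from the age means at members had a median correlation of 0.00299 within an animal (lowest -0.000624, highest 0.0103) and of -0.00125 between animals. Every position and locus of the table was tested with the paired test of the methods (P of 1 where the 6 differences had no spread), with Benjamini-Hochberg adjustment over all of them. Values of a culture were compared by the exact two-sided sign-flip permutation test over 64 sign patterns, and without pairing over the 924 ways to part the cultures. With 5 animals that test cannot give a P below 0.0625.

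The members and lists were chosen with earlier results of these data known. Named were the 10 members per direction with the largest difference, 1 per stretch. They were taken among those with at least 10 reads and 1 direction in all animals. Also named were the 5 stretches of at least 20 members per direction with the smallest P and the 10 stretches with the most members. The 5 highest single-culture values at 20 or more reads in that culture, at any depth elsewhere, and genes of the lists were named as well. Of 299 genes 296 matched a RefSeq symbol or synonym (ARS-UCD2.0, names only). The alternatives were depth, merged strands, other limits of the rule, even coverage, limma, the arcsine square root scale, the Cochran-Mantel-Haenszel test and each animal left out. The drawn stray values, the share of stretches with a mean of 10% or more and the spread at 20 reads were added after seeing the data. The scripts were tested on simulated data. Placing promoter sequences on the members, which had been planned, and sequences of the stretches were not analysed here. The number of columns of samples left unused was 0.

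The software was R 4.3.3 (limma 3.58.1) and Python 3.11.15 (matplotlib 3.10.9, scipy 1.17.1, pandas 2.3.3, numpy 2.4.6).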

Additional observations from a re-analysis of the deposited data

Results flagged for a closer look

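Among 102 groups of 6 cultures compared, 22 values stood apart from the other 5 by more than Dixon's 95% critical value, where chance gives about 1 in 20 groups. Culture 4A was apart from the remaining 5 young cultures in the mean ratio of the members (1.54%), the share of methylated reads (1.47%), the chance of a methylated read among 5 drawn (6.86%) and the mean at members over 500 bp from methylated DNA (1.49%). These 4 measures use the same reads.

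Of the named positions that were higher in young cultures, 6 had a single old culture above 0: 4B at 5% on chromosome 8 at 98846540 (KLF4), 6B at 8% on chromosome 13 at 79997067, 5B at 8% on chromosome 21 at 66284463, 1B at 11% on chromosome 7 at 52568209, 3B at 9% on chromosome 17 at 66445346 and 4B at 10% on chromosome 21 at 10150416. On chromosome 19 at 43884380 culture 4A stood apart at 50%. Of those higher in old cultures, 4A (6%) and 4B (20%) stood apart on chromosome 19 at 29085604, 5B (27%) on chromosome 19 at 38178290, 5A (7%) and 3B (21%) on chromosome 3 at 21173581 and 4B (17%) on chromosome 17 at 41718911. Where the other 5 cultures of an age read 0%, any value above 0 stands apart in this way.

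Among stretches, 2A stood apart at 0.292% in the ARRDC3 stretch on chromosome 7 at 93250075, the other young cultures being at 0%. Culture 4A stood apart at 3.45% in the SHISA2 stretch on chromosome 12 at 33577754, 4A at 0.325% and 3B at 0.183% below the others on chromosome 13 at 24655170, and 2A at 1.25% on chromosome 6 at 114967932. No cause was tested.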

How the results depend on the processing

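The mean, the share of methylated reads and the chance of a methylated read among 5 drawn kept their direction and did not pass the test under any alternative. With the pairing ignored (no replicate block), the mean difference was 0.0669 percentage points (exact permutation P = 0.102), the stray difference 0.0377 and the spread difference 0.0321, and no call on these or the other values over all members changed. The stretches on chromosome 17 at 74116221 (P = 0.108) and 74539930 (P = 0.0519) lost their call, and the members within 500 bp of methylated DNA gained one (exact P = 0.0303), as did their difference from those farther away (0.0368). In limma without the block, 1.16% of members and 2.25% of stretches had a P below 0.05, against 3.32% of all positions and 6.9% of all loci. After adjustment 1 member and 2 stretches passed. Limma with the block gave 1.48% of stretches, against 7.26% of all loci. The Cochran-Mantel-Haenszel test, which covers counting error only and not the spread between animals, gave 3.71% of members, against 7.45% of all positions. It gave 17.8% of stretches, against 20% of all loci. After adjustment 159 members and 973 stretches passed. Before adjustment, 0.318% of members had a P below 0.05 with a difference of at least 10 percentage points. That share was 0% at a mean ratio under 5%, as the rule then allows no such difference, 0.276% at a mean ratio under 20% and 0.645% at a minimum difference of 5 percentage points. Members with a P below 0.05 made up 1.14% with strands merged and 0.396% at a mean ratio under 5%, and stretches 3.02% at 10 reads. The stray difference turned to -0.0193 at a mean ratio under 5%. The cause of these shifts was not tested. Other limits on the mean ratio leave the paired test over all positions at 2.87%, and at 1.68% with a difference of at least 10 percentage points. For the counts after adjustment and the other shares given alone, no share over all positions or loci was taken. Nothing particular to the members can be read from those. Of the other values on all members or stretches, 99 were counted as unchanged. For a test this means the same direction and call. For a share or count of called positions or stretches it means only a value close to the main one, or 0 in both. Of the 80 values on named positions and stretches, 68 kept direction and call and 12 lost the call, 10 of them with strands merged. The 68 include checks that could not fail. Each named position and stretch had the same direction in every animal, and the arcsine square root scale keeps the order of values. Their sign-flip P was therefore fixed on that scale, and nothing about robustness can be read from it. Strands were merged for the named positions only. With strands merged the difference on chromosome 4 at 119499449 was 9.94 percentage points (exact P = 0.219), on chromosome 17 at 66445346 it was 5.23 (0.0625) and at 73694848 -1.5 (0.688), and on chromosome 19 at 29085604 it was -1.94 (0.406), and all kept their direction.

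Leaving out each animal gave a mean difference of 0.0322 to 0.0883, a difference in methylated reads of 0.0309 to 0.0899 and in drawn reads of 0.13 to 0.355 percentage points, lowest without animal 4 in all 3. The stray difference ran from -0.0274 (without animal 1) to 0.0881, with -0.00894 without animal 4, and the spread from -0.00322 (without animal 1) to 0.0615. The difference from the sparser positions ran from -0.186 to -0.125 and from the dense methylated positions from -0.818 to -0.149. With 5 animals the exact test cannot pass. Members with a P below 0.05 made up 0.509% to 0.543%, those with a difference of at least 10 percentage points 0.147% to 0.180%, and stretches 4.76% to 5.13%. No share over all positions or loci was taken with an animal left out. For stray values the minimum of 10 reads is already part of the definition. Most members had under 10 reads in some culture, which limits the precision of a ratio at 1 position.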
